A study of Danio rerio with 3 samples.

Results

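The genes described here are id1, id2a, id2b, id3, smad6a, smad6b, acvrl1, eng and bmpr2a, 9 symbols chosen by name as BMP response genes and their signalling partners. Of these 9, 8 have a row among the 25839 gene rows of the deposited tables. The symbol eng has none and was not analysed here, and the rows eng1a, eng1b, eng2a and eng2b, which belong to the unrelated engrailed genes, were not taken in its place. The cells came from the anal fin of immature zebrafish at stage II-III and were sorted for dsRed driven by fli1a regulatory sequence, with 80 fins named for each plate. They were sequenced by MARS-seq, a plate method that marks the 3' end of each transcript with the barcode of its well and with a molecular identifier (UMI), on 3 plates of 384 wells. There is no treatment, genotype or age contrast, so all comparisons are between wells of the same plates. The fli1a sequence is also active in some blood and neural crest cells, and whether each plate had its own fish is not stated in the labels.

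Bone morphogenetic proteins (BMPs) bind pairs of type I and type II receptor kinases, and the activated type I receptor phosphorylates Smad proteins that enter the nucleus with a shared partner Smad. In endothelium the main route runs through the type I receptor Acvrl1, the type II receptor Bmpr2 and the co-receptor endoglin, and in zebrafish loss of acvrl1 gives enlarged arteriovenous connections. The id genes are among the most direct targets of these Smads. Their products bind E proteins, which are basic helix-loop-helix transcription factors, and keep them off DNA. The products of smad6a and smad6b inhibit the same signal, so their genes form a negative feedback loop.

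The authors listed 384, 384 and 268 wells of plates 1, 2 and 3 as analysed, 1036 of 1152 in all, and these are used here unless other wells are named. Their median depth was 1064.5, 914.5 and 382 UMIs, so plate 3 carries the least information. A UMI of any of 10 pan-endothelial genes, such as cdh5 and tie1, was found in 83.9%, 83.1% and 55.6% of these wells, and in 90.8%, 93.0% and 80.8% of wells with at least 300 UMIs. The early endothelial gene etv2 was at 0 on the listed wells. All 3 plates use the same 384 well barcodes, 1 per coordinate, and share 1 sequencing batch.

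Among these genes only id1 was seen in a large share of wells. It had 682 UMIs in 330 wells, or 31.9% of the wells listed. Most of those wells held little of it: 170 had 1 UMI, 138 had 2 to 4, and 22 had 5 or more, with 18 in the richest. The second inhibitor of DNA binding, id3, had 139 UMIs in 108 wells. The receptor genes acvrl1 and bmpr2a had 161 UMIs in 128 wells and 84 UMIs in 68 wells. The remaining members were sparse, at 38 UMIs for id2a, 17 for smad6a, 16 for smad6b and 5 for id2b. A single well of plate 1 held 9 of the 38 UMIs of id2a. The paralogues id2a and id2b, smad6a and smad6b, and bmpr2a and bmpr2b may share reads, and the rule for reads that match several genes is not given in the sources used here.

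Levels are given as CPM, UMIs of the gene per 1000000 UMIs of the wells in question on a plate. Because each transcript is counted at its 3' end, the levels are compared for a gene between wells and not between genes. Over all listed wells id1 stood at 676, 536 and 319 CPM on plates 1, 2 and 3. The levels of id3 were 134, 116 and 55.4, and those of bmpr2a were 78.6, 76.9 and 20.8. All 3 genes were lowest on plate 3. acvrl1 was also lowest there, at 96.9 against 119.7 on plate 1 and 166 on plate 2.

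Wells were classed by 2 marker genes of the fin endothelium. Wells with at least 5 UMIs of aqp8a.1, a water channel gene of blood vessel endothelium, and none of lyve1a were called aqp8a.1-high, and numbered 76, 77 and 21 on plates 1, 2 and 3. Wells with at least 1 UMI of lyve1a, a hyaluronan receptor gene of lymphatic endothelium, and under 5 of aqp8a.1 were called lyve1a-positive, and numbered 108, 88 and 36. A further 103 wells met both conditions and 527 met neither. The classes matched their names on other markers. Lymphatic markers without lyve1a summed to 1106 ± 148 CPM in aqp8a.1-high wells and 3206 ± 507 in lyve1a-positive wells (SD, n = 3 plates), and blood endothelial markers without aqp8a.1 to 6323 ± 963 and 3753 ± 204. Median depths of the classes were close, at 1360.5, 1253 and 808 UMIs in aqp8a.1-high wells and 1374.5, 1207 and 675 in lyve1a-positive wells. Wells meeting neither condition were shallower, at 590.5, 501 and 245.

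id1 was higher in aqp8a.1-high than in lyve1a-positive wells. Its level in aqp8a.1-high wells was 700.4, 745 and 828 CPM on plates 1, 2 and 3, or 758 ± 65.0 (SD, n = 3). In lyve1a-positive wells it was 544, 350.1 and 270.1, or 388 ± 141. Every aqp8a.1-high sum lay above every lyve1a-positive sum, and the gap was widest on plate 3. The 2 plate 3 values rest on few counts, 17 UMIs in 8 aqp8a.1-high wells and 8 UMIs in 6 lyve1a-positive wells. In a fit over all genes with plate as a block, the log2 difference was 0.86 with a standard error of 0.24, which is 1.82-fold with a 95% interval of 1.31 to 2.51 (edgeR quasi-likelihood test, adjusted p = 0.0072). This fit tested 1915 genes and called 145 of them, 7.57%, with 81, or 4.23%, higher in aqp8a.1-high wells, and a median log2 difference over all genes of -0.01. Of the 8 members with a row, 4 passed its filter on low counts, and id1 was the 1 that passed the test.

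The call on id1 held in 13 of 21 alternatives and depended on the plates, the class limits and the test. Without plate 1 the log2 difference was 1.29 (edgeR adjusted p = 0.0797), without plate 2 it was 0.73 (adjusted p = 0.346) and without plate 3 it was 0.73 (adjusted p = 0.0316). The share of wells with an id1 UMI was 51.3%, 51.9% and 38.1% in aqp8a.1-high wells and 42.6%, 29.5% and 16.7% in lyve1a-positive wells, so each plate had the larger share in aqp8a.1-high wells, although the groups overlap. Thinned to 300 UMIs per well, with 3 aqp8a.1-high and 15 lyve1a-positive wells too shallow to enter, the shares were 20.3%, 25.0% and 19.0% against 13.3%, 11.2% and 12.5%. These shares come from a single random draw of UMIs, in which the classes no longer overlapped. The fit on thinned wells did not pass (log2 difference 0.97, edgeR adjusted p = 0.0552). Without thinning, DESeq2 (adjusted p = 0.251) and edgeR with no filter on low counts (adjusted p = 0.105) did not pass either.

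**Figure D1:**
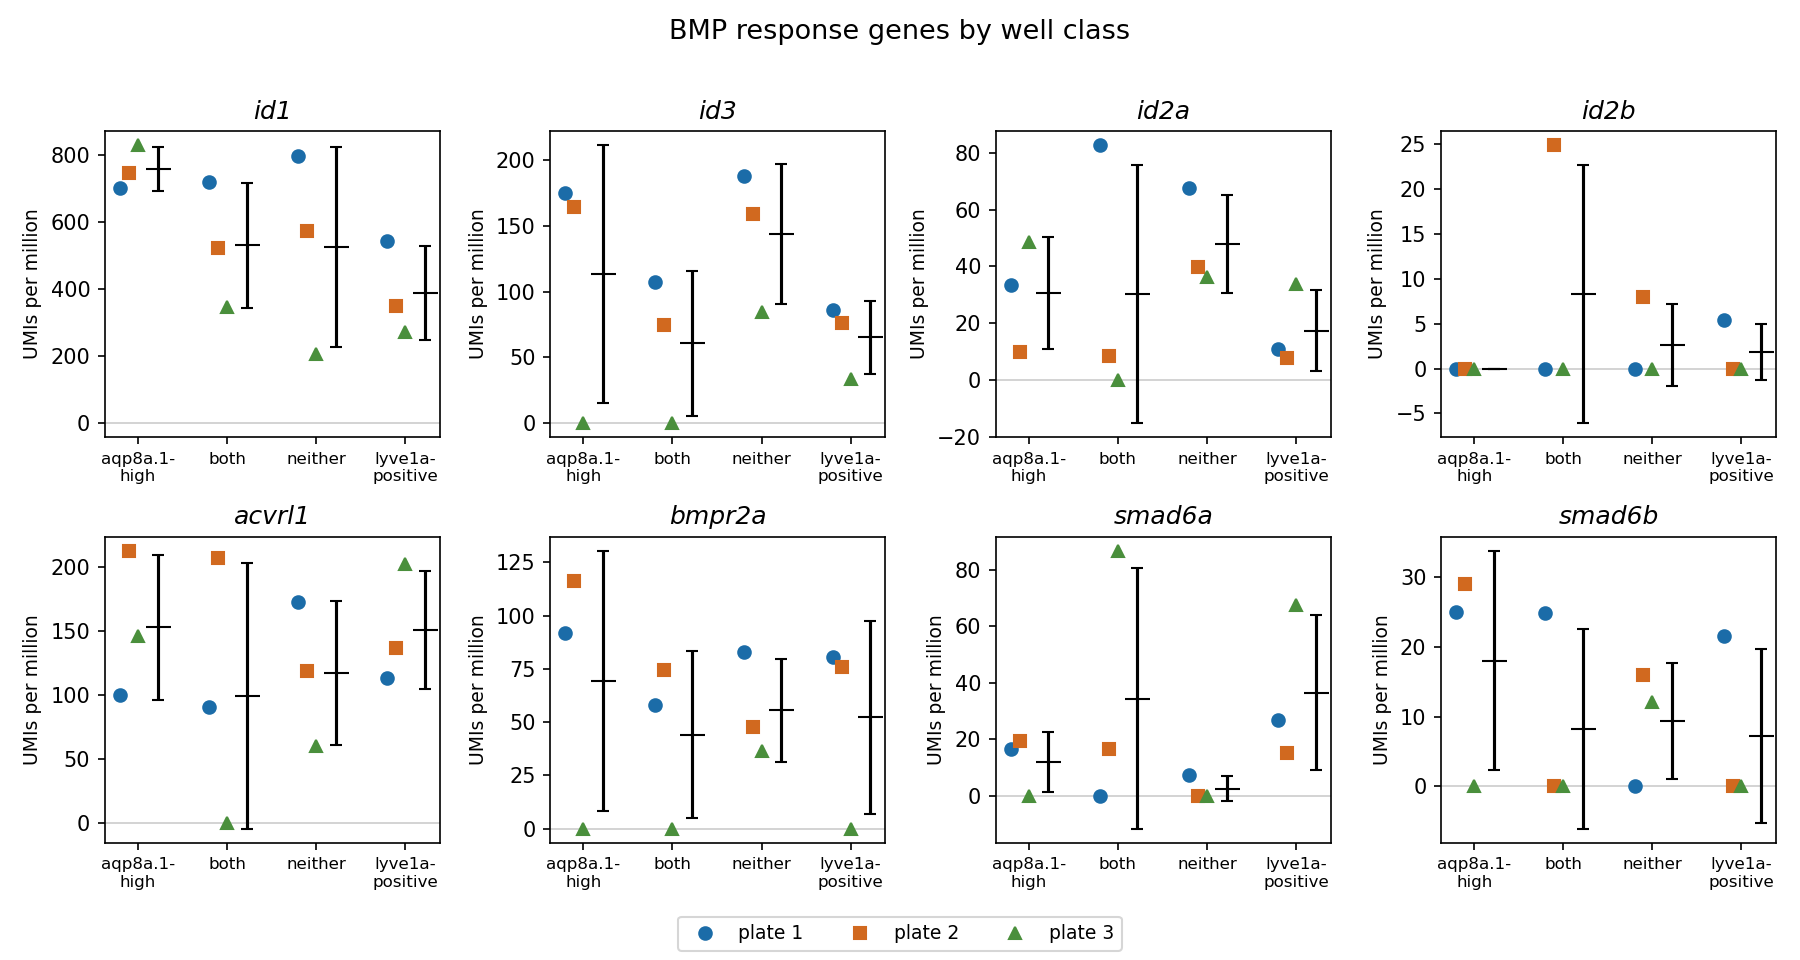
Level of each of the 8 genes in CPM (vertical axes, from a grey line at 0) by well class and plate. Symbols are plates, horizontal bars are means and whiskers are 1 SD over 3 plates, which can run below 0 for sparse genes. id1 sits between 700.4 and 828 in aqp8a.1-high wells and between 270.1 and 544 in lyve1a-positive wells, while the wells of neither class span 205 to 797.

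The 2 other classes overlapped both of these classes in id1 and do not settle how id1 relates to the 2 markers. Wells that met both conditions had 719, 522 and 347 CPM of id1, or 529 ± 186. Wells that met neither had 797, 572 and 205, or 525 ± 299. The order of means was therefore aqp8a.1-high, both, neither and lyve1a-positive, and all neighbours in this order overlapped between plates. On plate 1 the wells of neither class stood above the aqp8a.1-high wells, and on plate 3 they stood below the lyve1a-positive wells. Wells of neither class were also shallower, and their neutrophil markers summed to 2587, 199 and 2006 CPM.

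Finer bins by marker count gave the same mixed picture. Among wells without lyve1a, id1 on plate 1 was at 830.5, 775, 702 and 700.0 CPM with 0, 1 to 4, 5 to 9 and 10 or more UMIs of aqp8a.1. On plate 2 the same bins held 431, 647, 749 and 742. On plate 3 they held 255, 161, 354 and 1410.1, from 10, 7, 4 and 13 UMIs. Depth differed too, with medians of 436, 321 and 176.5 UMIs per well at 0 UMIs of aqp8a.1. At 10 or more the medians were 1522, 1369 and 702.5. Plates 2 and 3 had their lowest bins below 5 UMIs of aqp8a.1, and plate 1, whose bins differed least, had its highest bin at 0 UMIs. By lyve1a, wells with under 5 UMIs of aqp8a.1 held 797, 572 and 205 at 0 UMIs, 764, 586 and 171 at 1 UMI, and 438, 249.7 and 415 at 2 or more. On plates 1 and 2 id1 was lowest in wells with 2 or more UMIs of lyve1a, and on plate 3 it was highest there. The 3 plate 3 values rest on 17, 3 and 5 UMIs, the last from 14 wells.

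id3, the id gene with the most UMIs after id1, did not pass the test between the classes. It stood at 175, 164 and 0 CPM in aqp8a.1-high wells and at 86.2, 76.1 and 33.8 in lyve1a-positive wells. Plates 1 and 2 had the higher level in aqp8a.1-high wells. Plate 3 had no id3 UMI among the 20521 of that class, a count that allows up to 146 CPM (3 counts, counting error only). The log2 difference was 1.04 with a standard error of 0.46 and a 95% interval of 0.14 to 1.94 (edgeR adjusted p = 0.184). With all wells of the plates, listed or not, it was 1.22 and passed (adjusted p = 0.0325). In wells that met neither condition id3 stood at 188, 159 and 84.6 CPM, above the lyve1a-positive wells on each plate. On plates 1 and 2 these values were close to those of aqp8a.1-high wells. The mean over plates was 144 ± 53.3 CPM in wells of neither class and 113 ± 98.1 in aqp8a.1-high wells (SD, n = 3).

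The receptor genes showed no called difference between the classes. acvrl1 stood at 100.1, 213 and 146 CPM in aqp8a.1-high wells and 113, 137 and 203 in lyve1a-positive wells, or 153 ± 56.6 and 151 ± 46.3. The groups overlap throughout, and the log2 difference was 0.21 with a 95% interval of -0.60 to 1.01 (edgeR adjusted p = 0.867), which leaves room for a difference as large as that of id1. Its direction turned without plate 2, at -0.21, and with a limit of 3 UMIs of aqp8a.1, at -0.22. bmpr2a stood at 91.7, 116 and 0 CPM against 80.8, 76.1 and 0, and its log2 difference was 0.44 with an interval of -0.63 to 1.50 (edgeR adjusted p = 0.787). On plate 3 neither class held a bmpr2a UMI.

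For the members that did not pass the filter, only counts can be given. id2a had 6 UMIs in aqp8a.1-high wells, 4 in lyve1a-positive wells, 11 in wells that met both conditions and 17 in wells that met neither. Of the 11, 9 came from a single well of plate 1. The inhibitor smad6a had 4 UMIs in aqp8a.1-high wells and 9 in lyve1a-positive wells, and smad6b had 6 and 4. id2b had 0 and 1. Differences between classes in these 4 genes were not detectable at this depth.

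Sums of several marker lists differed between the classes. Pan-endothelial markers summed to 3544, 4390 and 4093 CPM in aqp8a.1-high wells and to 2774, 2511 and 3377 in lyve1a-positive wells, and 9 of 10 genes of this list had UMIs. Arterial markers ranged from 901 to 1508 and from 409 to 715, with 6 of 6 detected in both classes. Muscle markers went the other way, from 195 to 292 against 675 to 1142, with 6 and 7 of 10 genes detected and myhz2 and tnnt3a at 0 in both. Erythrocyte markers stood at 959, 319 and 97.5 CPM against 37.7, 183 and 0, with 6 of 7 genes detected and slc4a1a at 0 in both classes. Neutrophil markers, all 7 detected in both classes, stood at 133, 29.0 and 292 against 118, 0 and 3343. On plate 3, where the widest id1 gap rests on 17 and 8 UMIs, their level was thus far higher in lyve1a-positive than in aqp8a.1-high wells. The part of the pan-endothelial, arterial and muscle sums in the id1 difference was not tested. The id1 difference was 0.84 (edgeR adjusted p = 0.0238) without wells that held 3 or more UMIs of neutrophil, macrophage or erythrocyte markers. There were 29 such wells among all listed wells, some of them outside both classes. This choice was made after seeing the data, and wells with fewer such UMIs stayed in.

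The second question was whether the same genes follow malat1, a nuclear long noncoding RNA whose share of a well's UMIs varied widely. Wells with at least 300 UMIs were split at the plate's median malat1 share, which was 0.363%, 0.427% and 0.993% on plates 1, 2 and 3. Those above it are called malat1-rich (399 wells) and the others malat1-poor (401 wells).

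The id genes with the most UMIs, id1 and id3, were higher in malat1-rich wells. A higher id1 in malat1-rich clusters of these wells was known when the split was chosen, so the id1 contrast is not an independent test. id1 stood at 869, 744 and 567 CPM in malat1-rich wells, or 727 ± 151 (SD, n = 3), and at 512, 349.6 and 143 in malat1-poor wells, or 335 ± 185. The groups did not overlap, and each plate had the higher level in its malat1-rich wells. The log2 difference was 0.89 with a standard error of 0.19, 1.86-fold with a 95% interval of 1.44 to 2.40 (edgeR adjusted p = 0.00012). This contrast tested 3565 genes and called 523 of them, 14.7%, with 259, or 7.27%, higher in malat1-rich wells, and a median log2 difference over all genes of -0.02. Without plate 2 it was 0.96 and did not pass (adjusted p = 0.151), and without the plate block it was 0.89 (adjusted p = 0.0631).

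id3 stood at 181, 169 and 83.5 CPM in malat1-rich wells and 95.8, 71.5 and 42.9 in malat1-poor wells. Each plate had the higher level in its malat1-rich wells, although plate 3's rich wells were below plate 1's poor wells. Plate 3 adds little here, with 5 id3 UMIs in malat1-rich and 3 in malat1-poor wells. The log2 difference was 0.89 with a standard error of 0.32, 1.85-fold with an interval of 1.20 to 2.86 (edgeR adjusted p = 0.0412). The call held in 8 of the 14 alternatives that gave an adjusted p. It was lost without plate 1 (edgeR adjusted p = 0.159), without plate 2 (0.262), without the plate block (0.122), with no expression filter (0.189), between the highest and lowest of 3 groups by malat1 share (0.178) and without mitochondrial genes (0.0983). Among the members 2 of the 4 tested were higher, id1 and id3, and none was lower, where 7.27% of all genes were higher and 7.41% lower.

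The receptor genes did not pass in the malat1 split either. acvrl1 stood at 125, 224 and 150.2 CPM in malat1-rich wells and 119, 115 and 42.9 in malat1-poor wells, with plate 1 nearly level. Its log2 difference was 0.49 with an interval of -0.10 to 1.09 (edgeR adjusted p = 0.288). bmpr2a stood at 105, 86.7 and 16.7 against 59.5, 67.5 and 14.3, with a log2 difference of 0.43 and an interval of -0.34 to 1.19 (edgeR adjusted p = 0.513). Of the sparse members, smad6b had 12 UMIs in malat1-rich and 3 in malat1-poor wells, smad6a had 11 and 6, id2a had 11 and 27, and id2b had 2 and 3, and none of these could be tested. Of the 27 id2a UMIs in malat1-poor wells, 9 came from a single well of plate 1.

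A split of each plate's wells into 3 equal groups by malat1 share gave a graded order for id1 on plates 1 and 2. From the lowest to the highest group id1 stood at 407, 709 and 1013 CPM on plate 1. On plate 2 it was 331, 539 and 799, and on plate 3 it was 113, 445 and 472. The plate 3 values rest on 5, 22 and 17 UMIs, and the step from its middle to its highest group is not clear. The share of wells with an id1 UMI fell at that step, from 28.0% to 18.0%. id3 stepped up from the lowest to the middle group on plates 1 and 2, from 85.1 to 169.6 and from 84.3 to 130.0. Its plate 3 values there, 45.1 and 60.7, rest on 2 and 3 UMIs and show no clear step. The highest group of plate 1, at 158, was below the middle one for id3. acvrl1 ran from 85.1 to 139 and 152 on plate 1, from 118 to 173 and 221 on plate 2, and from 22.6 to 101 and 167 on plate 3. Those plate 3 values rest on 1, 5 and 6 UMIs.

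**Figure D2:**
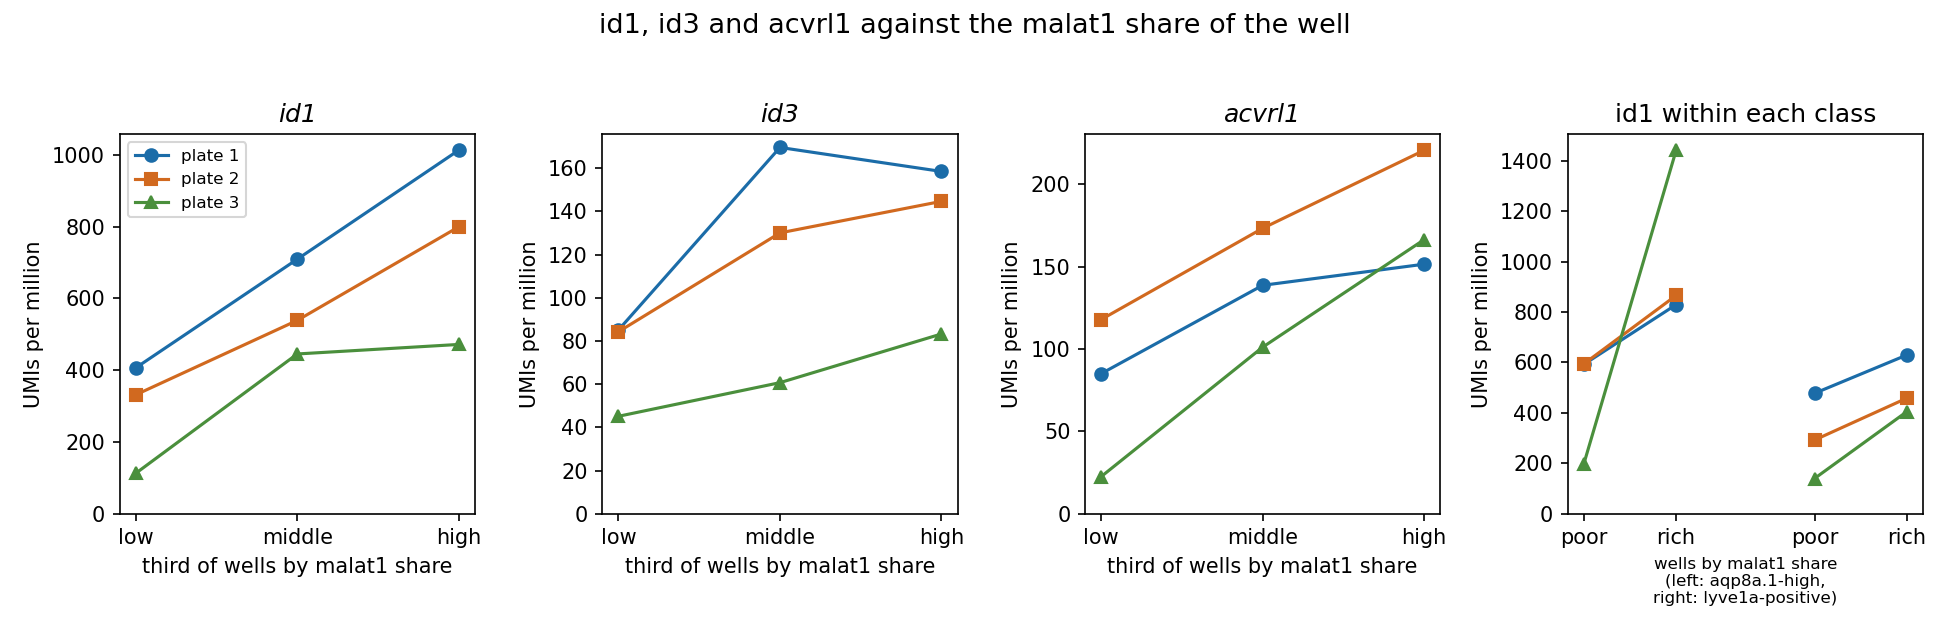
Level in CPM (vertical axes) of id1, id3 and acvrl1 in each plate's wells of at least 300 UMIs, in 3 equal groups by malat1 share, and at the right id1 in malat1-poor and malat1-rich wells of each class. Lines join values of a plate. id1 increases from group to group on plates 1 and 2, from 407 to 1013 on plate 1. On plate 3 the middle and highest groups, at 445 and 472, rest on 22 and 17 UMIs. Within both classes each plate has the higher id1 level in its malat1-rich wells. For plate 3 the malat1-poor value of each class rests on 2 UMIs.

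Several other sums moved with the malat1 split. Pan-endothelial markers summed to 4099, 3896 and 4690 CPM in malat1-rich wells and 2385, 2808 and 2805 in malat1-poor wells, with etv2 at 0 in both. Arterial markers stood at 953, 1474 and 868 against 416, 564 and 859, nearly level on plate 3. Blood endothelial markers, 8 of 8 detected in both groups, stood at 11686, 12907 and 13569 against 8331, 9537 and 6197, without overlap. A list of 11 genes induced by tissue dissociation, all detected, stood at 9047, 9964 and 12351 against 8602, 7968 and 8329. Ribosomal protein genes took 15.4%, 14.3% and 14.8% of UMIs in malat1-rich wells and 18.4%, 17.8% and 17.7% in malat1-poor wells. Neutrophil markers, all 7 of which were detected in both groups, summed to 125, 73.0 and 384 in malat1-rich and 1202, 51.6 and 3506 in malat1-poor wells, so plates 1 and 3 held more of them in malat1-poor wells. Erythrocyte markers stood at 487, 2349.6 and 50.1 against 29.7, 254 and 100.2, with 7 and 5 of 7 genes detected and alas2 and slc4a1a at 0 in malat1-poor wells. Without the wells rich in blood cell markers the id1 difference was 0.91 (edgeR adjusted p = 0.0021) and that of id3 was 0.93 (adjusted p = 0.0445). These wells number 29 among all listed wells of any depth. The part of the pan-endothelial, arterial, blood endothelial, dissociation and ribosomal sums was not tested.

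The malat1 share differed between the classes on plates 1 and 2, which was not tested. On plate 3 the classes were nearly level, with a median malat1 share of 1.55% in aqp8a.1-high and 1.60% in lyve1a-positive wells. Of aqp8a.1-high wells 54.1%, 57.9% and 61.9% were malat1-rich on plates 1, 2 and 3, against 41.0%, 41.2% and 59.4% of lyve1a-positive wells. When the malat1 split was added as a term over the 12 sums of plate, class and split, id1 was still higher in aqp8a.1-high wells. The log2 difference was 0.73 with a standard error of 0.23, 1.66-fold with an interval of 1.20 to 2.29 (edgeR adjusted p = 0.0307). The 12 sums still come from 3 plates, and the fit has no term for how the class difference varies between plates. This fit tested 872 genes and called 102 of them, 11.7%, with 51, or 5.85%, higher in aqp8a.1-high wells. Without plate 2 the difference was 0.65 and did not pass (adjusted p = 0.367). Only acvrl1 among the other members passed the filter of this fit, with a log2 difference of 0.12 and an interval of -0.78 to 1.01 (edgeR adjusted p = 0.909).

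Within each class, id1 had the higher level in malat1-rich wells on all 3 plates, but neither difference passed the test. In aqp8a.1-high wells it stood at 829, 866 and 1440.9 CPM in malat1-rich against 592, 594 and 198 in malat1-poor wells. That 198 came from 2 UMIs in 8 wells. The log2 difference was 0.82 with a standard error of 0.32 and an interval of 0.16 to 1.48 (edgeR adjusted p = 0.189), in a fit that tested 774 genes and called 3.49% of them, 2.84% higher in malat1-rich wells. Without the well of each plate that held the most id1, a choice made after seeing the data, the difference was 1.11 and passed (adjusted p = 0.0349). The share of aqp8a.1-high wells with an id1 UMI was also larger among malat1-rich wells on each plate. In lyve1a-positive wells id1 stood at 629.6, 458 and 405 against 478, 292 and 139.9, the last from 2 UMIs in 13 wells. The share of these wells with an id1 UMI was 46.5%, 27.3% and 21.1% against 40.3%, 36.2% and 15.4%, so plate 2 went the other way. The log2 difference there was 0.58 with a standard error of 0.32 and an interval of -0.04 to 1.21 (edgeR adjusted p = 0.341), in a fit that tested 982 genes and called 3.36% of them, 2.44% higher and 0.916% lower in malat1-rich wells. Among aqp8a.1-high wells aqp8a.1 itself stood at 18434, 16707 and 25264 CPM in malat1-rich wells. In malat1-poor wells it stood at 13449, 11029 and 9000, and its part in the id1 difference was not tested.

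The malat1 difference in id1 was not shown to differ between the classes. The interaction on the log2 scale was 0.27 with an interval of -0.66 to 1.20 (edgeR adjusted p = 1). That fit called 0 of 1115 genes, 0%, where 31 had an unadjusted p under 0.05, and DESeq2 also called 0. For id3 the interaction was -0.59 with an interval of -2.56 to 1.38, and for acvrl1 it was -0.11 with an interval of -1.89 to 1.67. The widths of these intervals show how little 3 plates can resolve here.

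**Figure D3:**
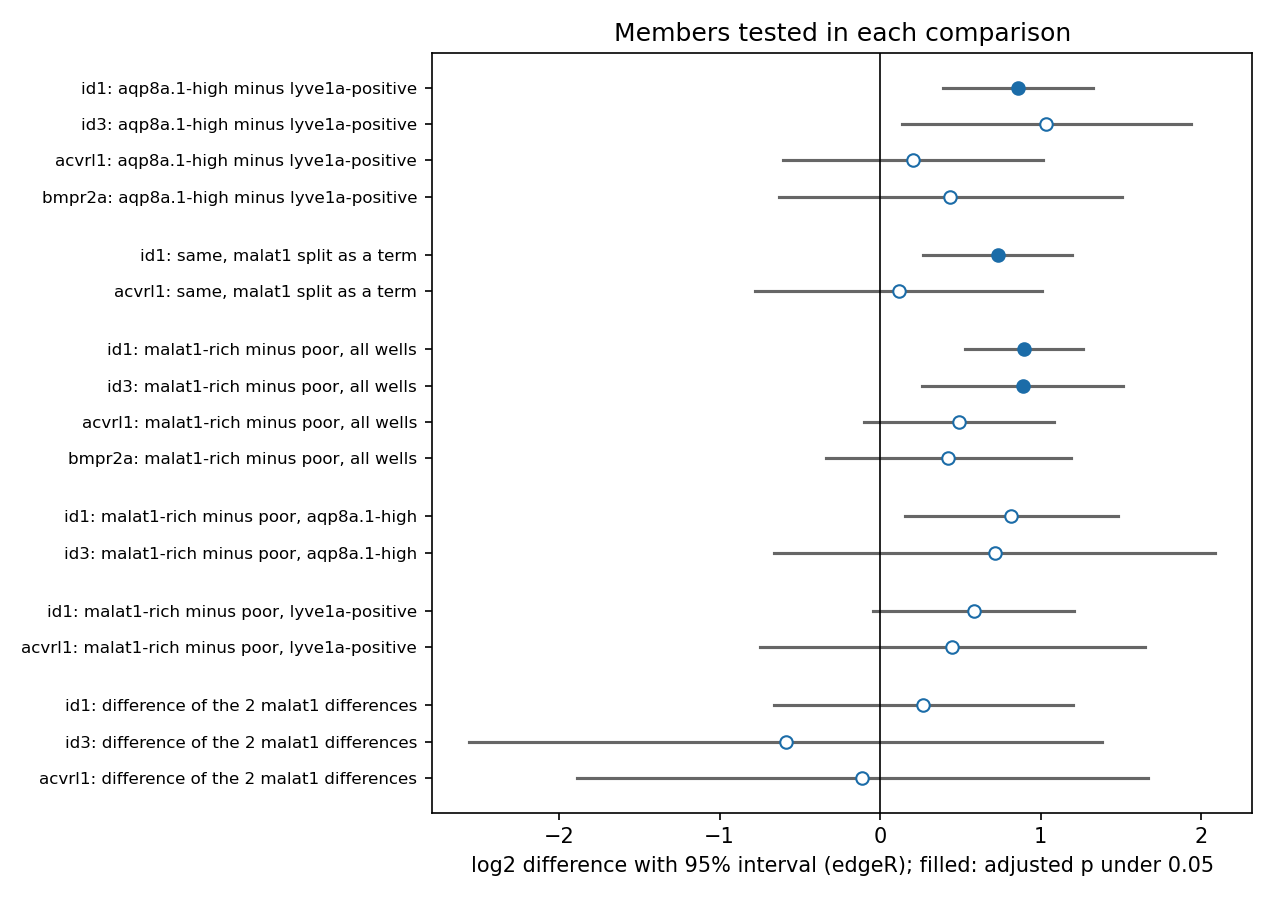
Log2 difference of each tested gene (horizontal axes) in each contrast, with 95% intervals. Filled points passed the test. The estimate for id1 is above 0 in every contrast, at 0.86 between the classes, 0.73 with the malat1 split as a term and 0.89 between malat1-rich and malat1-poor wells, and its interval includes 0 within lyve1a-positive wells and for the interaction; the intervals of acvrl1 and bmpr2a include 0 wherever they were tested.

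Other members were also set against id1 well by well, among wells with at least 300 UMIs. id3 stood at 156, 186 and 64.6 CPM in the 315 wells with an id1 UMI and at 104, 58.5 and 60.7 in the 485 without. The difference was present on plates 1 and 2 and nearly absent on plate 3. acvrl1 stood at 113, 196 and 162 with id1 and 134, 141 and 70.8 without, lower with id1 on plate 1 and higher on plates 2 and 3. Wells with an id1 UMI were deeper, with a median of 1468, 1386.5 and 852.5 UMIs against 991, 1032 and 630.0, and these values are a description with no test.

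The wider BMP pathway was read from a list of 77 further genes, of which 63 had a row. UMIs of ligand genes were few in these wells. With 3' end counts at this depth and an annotation not given, a count of 0 does not show that a transcript was absent. bmp16 had 48 UMIs, bmp6 had 11, bmp5 had 6, bmp7b had 4 and bmp2b had 1, while bmp2a, bmp4, bmp7a, bmp10, gdf2, gdf6a and gdf6b were at 0. The latter group includes gdf2 and bmp10, whose products are the high-affinity ligands of Acvrl1. Receptors other than the members were seen at 88 UMIs for acvr1l, 69 for the co-receptor gene tgfbr3, 34 for acvr2aa, 23 for bmpr2b and 17 for bmpr1ba. The signal-carrying Smad genes smad1, smad5 and smad9 had 261, 208 and 31 UMIs. The E protein genes, whose products the Id proteins bind, were present at 475 UMIs for tcf12, 136 for tcf3b and 48 for tcf3a.

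Between the classes 11 pathway genes were tested, of which 1 was higher in aqp8a.1-high wells, 1 was lower and 9 did not pass, where 4.23% of all genes were higher and 3.34% lower. Their median log2 difference was 0.51, with 6 of 11 above 0, against -0.01 and 944 of 1915 over all genes. hey1, a transcriptional repressor gene that answers to Notch as well as BMP signals, stood at 117, 203 and 97.5 CPM in aqp8a.1-high and 32.3, 53.3 and 0 in lyve1a-positive wells. It had only 3 UMIs in all listed wells of plate 3. Its log2 difference was 2.01 with a standard error of 0.53 (edgeR adjusted p = 0.0045), and it was also present in wells that met neither condition, at 165, 167 and 12.1. ctgfa, listed under its current name ccn2a and coding for a matricellular protein, went the other way, at 83.4, 29.0 and 146 against 215, 274 and 371. It was 3.66-fold lower in aqp8a.1-high wells (log2 difference -1.87, standard error 0.43, edgeR adjusted p = 0.00054), and did not pass without plate 2 (adjusted p = 0.206). In the fit with the malat1 term, where 5.85% of all genes were lower, ctgfa was the 1 of 6 pathway genes called, at -1.94 (edgeR adjusted p = 0.0015). The Smad genes smad1 and smad5 had log2 differences of 0.56 (edgeR adjusted p = 0.409) and 0.51 (adjusted p = 0.544).

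In the malat1 split 17 pathway genes were tested, of which 3 were higher in malat1-rich wells, 1 was lower and 13 did not pass, where 7.27% of all genes were higher. Their median log2 difference was 0.32, with 11 of 17 above 0, against -0.02 and 1753 of 3565 over all genes. tgfbr3, coding for the co-receptor betaglycan, stood at 96.5, 77.6 and 100.1 CPM against 33.0, 15.9 and 28.6, 3.12-fold (log2 difference 1.64, standard error 0.46, edgeR adjusted p = 0.0056). ctgfa was 2.05-fold higher, at 189, 159.7 and 417 against 76.0, 99.3 and 114 (edgeR adjusted p = 0.0059). hey1 was 1.98-fold higher, at 125, 169 and 16.7 against 56.2, 67.5 and 28.6 (edgeR adjusted p = 0.0419). With only 3 hey1 UMIs in all its listed wells, plate 3 shows no clear order. The hey1 call held in 7 of the 12 alternatives that gave an adjusted p, with adjusted p up to 0.210 in edgeR. Without plate 1 or plate 2 hey1 did not pass the filter on low counts in either contrast. cyr61, which codes for a relative of the ctgfa product, was 2.40-fold lower, at 56.3, 82.1 and 33.4 against 172, 115 and 100.2 (edgeR adjusted p = 0.0039), where 7.41% of all genes were lower. Without plate 1 and without plate 2, tgfbr3 (adjusted p = 0.105 and 0.215), ctgfa (0.132 and 0.103) and cyr61 (0.350 and 0.105) did not pass in edgeR. The inhibitory Smad gene smad7 had 24 UMIs in malat1-rich and 7 in malat1-poor wells, at 24.1, 54.7 and 100.1 CPM against 13.2, 7.9 and 14.3, and did not pass (log2 difference 1.80, edgeR adjusted p = 0.0731). ctgfa thus had opposite signs in the contrasts: lower in aqp8a.1-high wells and higher in malat1-rich wells. Within lyve1a-positive wells it was also higher in malat1-rich wells, with a log2 difference of 1.63 (edgeR adjusted p = 0.0076), a call that held in 13 of 19 alternatives and was lost without plate 1 (adjusted p = 0.429), without plate 2 (0.0846) and with DESeq2 (0.546).

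**Figure D4:**
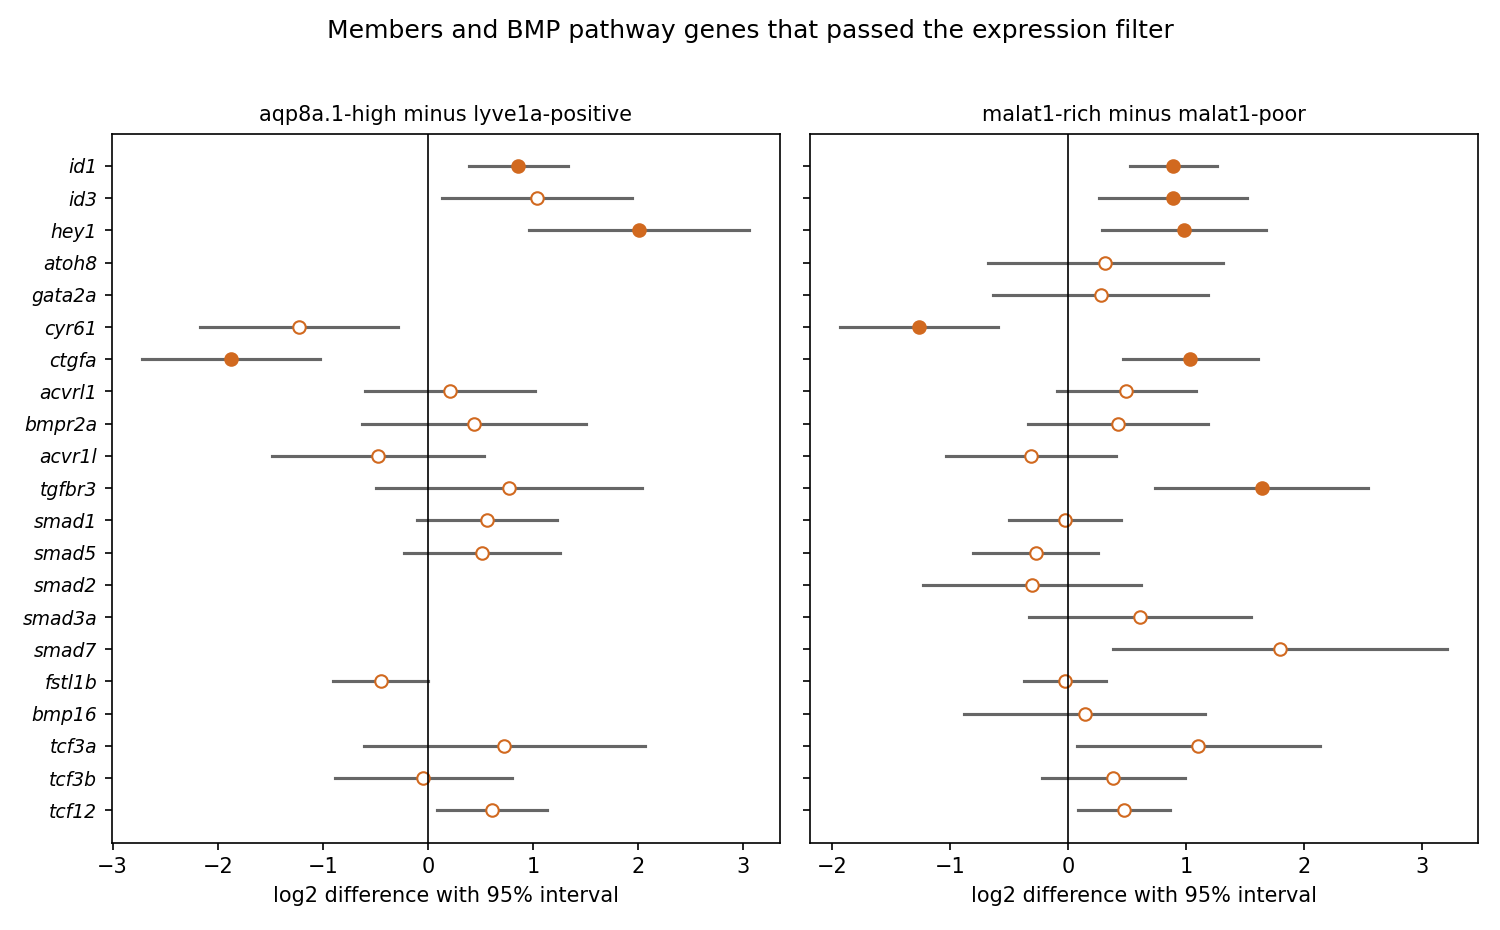
Log2 difference of the members and pathway genes tested (vertical positions) between the classes and between malat1-rich and malat1-poor wells (horizontal axes), with 95% intervals and filled points for calls. The calls between the classes are id1 at 0.86, hey1 at 2.01 and ctgfa at -1.87, and those of the malat1 split are id1 and id3 at 0.89, tgfbr3 at 1.64, ctgfa at 1.04, hey1 at 0.99 and cyr61 at -1.26.

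The genes whose pattern was most like that of id1 were sought over the 12 sums of plate, class and malat1 split, on log2(UMIs CPM + 100) centred per plate, among 706 genes with at least 100 UMIs. They were apc, a Wnt pathway scaffold gene (Pearson's r = 0.929), limch1b (0.911), pdgfbb, a platelet-derived growth factor gene (0.910), the kinase gene pim1 (0.881) and the kinase gene prkd2 (0.878). These correlations describe 12 sums that share 3 plates and carry no test. Of the 5 genes, limch1b and pdgfbb were higher in aqp8a.1-high wells, with log2 differences of 0.89 (edgeR adjusted p = 0.0163) and 1.49 (adjusted p = 0.0029), and higher in malat1-rich wells, at 0.73 (adjusted p = 0.0039) and 0.95 (adjusted p = 0.0081). prkd2 was also higher in malat1-rich wells, at 0.62 (edgeR adjusted p = 0.0436), and apc and pim1 passed in neither contrast. Since likeness was measured on the sums that the contrasts use, these calls are not separate evidence of a shared pattern.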

How the data were processed

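The authors deposited, for each plate, UMI counts per gene and well without normalization, with well barcodes and the wells they analysed. The submitters' processing notes name Bowtie2 and the build GRCz10, and the sources used here do not give the annotation or the rules for UMIs and multiple matches. UMIs were summed per plate and class of wells, since wells are not replicates, and tested with edgeR 4.0.16 (R 4.3.3): TMM scaling, filterByExpr, quasi-likelihood F-test, plate as a block, Benjamini-Hochberg adjustment over all genes tested, threshold 0.05. Both groups of a contrast come from the same plate, which is what pairs them. Standard errors were taken as the log2 difference over the square root of F. Genes that made a split were left out of its test and library sizes. With plate as a block, the p-values rest on how differences between groups vary over 3 plates, pooled over genes. That variation may be technical. In these fits the pooled spread outweighed the gene's own spread, and between the classes it carried nearly all the weight. A p-value or interval therefore says little about how steady a gene was from plate to plate. The 95% intervals of log2 and fold differences come from the same fits and carry that pooled spread. Floors for a count of 0 cover counting error only. Doublets were not called, and wells meeting both class conditions entered neither class. DESeq2 1.42.0, other scalings, filters, class limits and depths, and leaving out each plate were alternatives. Scripts were tested on simulated data. Named genes are the members, pathway genes called in a contrast, and the 5 genes most like id1. The members, lists and splits were chosen with earlier results of these data known, among them a higher id1 in malat1-rich clusters of wells. No sequences are shown.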

Additional observations from a re-analysis of the deposited data

Results flagged for a closer look

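The 116 wells of plate 3 that the authors did not list as analysed held 76768 UMIs, with a median of 296.5 per well, and members were found there too. id1 stood at 326 CPM, or UMIs per 1000000 (25 UMIs), id3 at 78.2 (6 UMIs), acvrl1 at 104 (8 UMIs) and bmpr2a at 52.1 (4 UMIs). A count of 0 allows up to 39.1 CPM here (3 counts). Any gene with 4 or more UMIs exceeds this, so exceeding it adds nothing to the counts. The value of id1 in these wells was close to the 319 CPM of the plate's listed wells.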

How the results depend on the processing

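The log2 differences of id1 were above 0 under every alternative run in every contrast. Between the classes its call held in 13 of 21 alternatives, and in the malat1 split in 13 of 15. Between the classes it did not pass (edgeR unless named) with DESeq2 (0.91, adjusted p = 0.251), no expression filter (0.83, 0.105), a limit of 3 UMIs of aqp8a.1 (0.65, 0.203), wells meeting both conditions put with aqp8a.1-high (0.74, 0.0501) or lyve1a-positive wells (0.62, 0.0735), or wells thinned to 300 UMIs (0.97, 0.0552). Leaving out a plate gave 0.73 to 1.29. In the malat1 split leaving out a plate gave 0.76 to 1.23. With the malat1 term, id1 did not pass with no filter (0.67), at 3 (0.62) or 10 UMIs of aqp8a.1 (0.71), with wells meeting both conditions as lyve1a-positive (0.56) or without the wells richest in id1 (0.68), and gave 0.65 to 1.15 with a plate left out.

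Without the plate block, which pairs the groups of a plate, genes called in the malat1 split went from 523 to 132, within lyve1a-positive wells from 33 to 8, and id1 in the malat1 split (0.89) was no longer called. Between the classes id1 held without the block (0.86, edgeR adjusted p = 0.0367).

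Counts of called genes moved as follows. Between the classes 145 became 41 with DESeq2, 81 with no filter, 61 at 3 UMIs of aqp8a.1, 79 and 84 with wells meeting both conditions put in either class, 33 thinned and 44 to 150 with a plate left out. In the malat1 split 523 became 63 with DESeq2, 330 with no filter and 2 to 629 with a plate left out, the 2 without plate 2. Within aqp8a.1-high wells 27 became 2 with DESeq2, 17 with no filter or no depth minimum, 15 with wells meeting both conditions added, 42 without the wells richest in id1 (id1 at 1.11) and 4 to 44 with a plate left out. Within lyve1a-positive wells 33 became 0 with DESeq2 (48 at an unadjusted p under 0.05), 8 with no filter, 11 at 3 UMIs of aqp8a.1, 6 at 2 UMIs of lyve1a, 15 with no depth minimum and 0 to 35 with a plate left out. With the malat1 term 102 became 37 to 89 with a plate left out. The cause of these moves was not tested.

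Values that turned sign were uncalled. Between the classes acvrl1 was -0.21 to 0.40 with a plate left out (-0.21 without plate 2) and -0.22 at 3 UMIs of aqp8a.1, where it was also -0.22 with the malat1 term. Within lyve1a-positive wells it was -0.048 without plate 3. In the interaction, id3 was 0.33 at 3 UMIs of aqp8a.1. There acvrl1 was 0.036 with no filter, 0.45 without plate 3, 0.12 and 0.080 at 3 and 10 UMIs, and 0.29 with wells meeting both conditions as aqp8a.1-high. cyr61 was 0.10 with no filter, 0.37 without plate 3 and 0.61 with those wells as lyve1a-positive. The levels by class did not move by more than 1 SD in wells of at least 300 UMIs. Alternatives without mitochondrial genes, without the wells richest in id1 and without wells rich in blood cell markers were chosen after seeing the data.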
